A study of Mus musculus with 82 samples.

Results

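Genes of the red blood cell were followed in dorsal skin biopsies of mice for 4 weeks after whole-body X-rays. The set named 7 genes, Hba-a1, Hbb-bt, Hbb-b1, Alas2, Slc4a1, Ahsp and Epb42, and a gene entered when the accession of an array probe mapped to its symbol, and where several probes matched, the brightest was taken, by its log2 intensity averaged over the 82 arrays. Of these 7 genes, 5 had a matched probe among 18690 genes with a probe, and 4 (Hba-a1, Hbb-bt, Alas2 and Slc4a1) were bright enough to be tested. Hbb-b1 and Ahsp had no matched probe. Epb42, which encodes a protein that anchors the red cell membrane to its skeleton, was well above background on 1 of 82 arrays, and no difference is given for it.

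The mice were young adult C57BL/6j males irradiated once by a linear accelerator under ketamine and xylazine anesthesia, and sham mice were handled the same way without radiation. Each biopsy pooled skin with the blood it held and was compared on a 2-color array with universal mouse reference RNA, the biopsy in Cy5 and the reference in Cy3, so that a value is the log2 ratio of biopsy to reference. The labels named 24 mice, each in 1 dose group (sham, 1, 3, 6 or 20 Gy) and most of them biopsied repeatedly at hour 2 (h2) and at days 4, 7, 21 and 28 (d4 to d28). From h2 to d28 there were 4, 4, 4, 2 and 2 sham arrays, 4, 4, 2, 4 and 4 arrays after 1 Gy, 5, 5, 3, 4 and 3 after 3 Gy, 4, 4, 2, 3 and 4 after 6 Gy. After 20 Gy there were 4, 4 and 3 up to d7, a lethal dose after which no later biopsy was taken. The sham mice differed between time points, since only M002 and M003 were biopsied at d21 and d28.

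Red blood cells carry oxygen on hemoglobin, a protein of alpha and beta globin chains that each hold a heme group. They arise in the bone marrow from dividing precursors, which are known to be sensitive to radiation, and leave it as reticulocytes, young cells without a nucleus that still hold globin RNA for a short time. Hba-a1 encodes an alpha chain and Hbb-bt a beta chain. Alas2 encodes the first enzyme of heme synthesis in red cell precursors, and Slc4a1 encodes band 3, the anion exchanger of the red cell membrane. In bulk tissue, fewer cells of a type and less RNA per cell cannot be told apart.

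The promoters of the 3 genes that moved together most closely are shown because such genes are known to share control elements of red cell genes. They are the 250 bases before the RefSeq start on GRCm38.p6, 5′ to 3′, found for 4 of the 7 members. Capitals mark the letters AGATAA or else TGATAA (called a GATA motif), the CACCC box, the CCAAT box and the TATA box TATAAA, each searched on either strand, and the CACCC copies of the Alas2 window touch each other. The Hba-a1 promoter lay at chr11:32283422-32283671 on the plus strand, that of Hbb-bt at chr7:103813924-103814173 on the minus strand, and that of Alas2 at chrX:150547167-150547416 on the plus strand.
Hba-a1: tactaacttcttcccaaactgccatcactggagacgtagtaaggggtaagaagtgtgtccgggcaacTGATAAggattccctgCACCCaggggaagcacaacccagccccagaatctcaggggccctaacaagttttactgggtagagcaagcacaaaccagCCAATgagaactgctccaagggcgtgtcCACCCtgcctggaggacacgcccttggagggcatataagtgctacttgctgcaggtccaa
Hbb-bt: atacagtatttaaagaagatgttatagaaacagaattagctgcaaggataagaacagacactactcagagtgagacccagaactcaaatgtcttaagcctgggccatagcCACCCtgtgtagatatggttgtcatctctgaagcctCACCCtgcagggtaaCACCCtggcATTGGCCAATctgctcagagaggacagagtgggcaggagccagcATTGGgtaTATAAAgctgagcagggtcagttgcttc
Alas2: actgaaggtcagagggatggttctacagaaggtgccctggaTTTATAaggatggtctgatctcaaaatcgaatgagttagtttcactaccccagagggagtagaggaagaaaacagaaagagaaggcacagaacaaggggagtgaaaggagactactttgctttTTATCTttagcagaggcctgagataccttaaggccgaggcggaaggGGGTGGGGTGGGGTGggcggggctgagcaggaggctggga
The Hba-a1 window held 1 GATA motif, 2 CACCC boxes and 1 CCAAT box, the Hbb-bt window 3 CACCC boxes, 3 CCAAT boxes (the first 2 side by side on opposite strands) and 1 TATA box. The Alas2 window held 1 GATA motif, 3 CACCC boxes and 1 match to TATAAA, all on the minus strand, the last at base -209. Among 32851 promoter windows of this length, 16.6% held a GATA motif, 52% a CACCC box, 33.8% a CCAAT box and 12.4% a TATA box. These matches are descriptions of the letters and say nothing of binding.

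The arrays differed in quality, and this touched the 20 Gy group. Net Cy5 (signal minus background) had array medians of 12 to 15 after 20 Gy at h2 and d4, and 7 to 11 at d7. In sham these were 30.5 to 47 at h2, 32 to 46 at d4 and 8 to 42 at d7. Processing raised the log2 ratio of spots brightest in Cy3 by 3.37 to 4.01 on 20 Gy arrays of h2 and d4. In sham at d4 it was 0.15 to 2.28. The SD of log2 ratios was 0.67 to 0.75 on those 20 Gy arrays and 0.91 to 0.96 in sham at d4. All 11 arrays of 20 Gy and 8 of the 16 sham arrays were read on the first of 2 scanners, and the 4 arrays of 20 Gy at h2 shared 1 slide, as did the 4 at d4, and the part of the slide in these groups cannot be told apart from that of the dose. On the 8 arrays of 20 Gy at h2 and d4, the values normalized here from the scanner files correlated with the authors' deposited log2 values at r = 0.656 to 0.750, and on the 3 arrays of 20 Gy at d7 and the 2 sham arrays at d7 from the same scanner at 0.720 to 0.813, whereas the other 69 arrays gave 0.873 to 0.979. The main 20 Gy results are therefore given from both sources. The share of probes well above background ranged from 33.2% to 71.3% over the arrays. Keratins and other epidermal markers were high in all sham biopsies at h2, with a list mean log2 ratio of 4.67 to 5.12 over 9 tested markers. Nothing in the labels separates technical from biological spread, beyond the mouse identifiers.

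Hbb-bt gave the highest ratios of the set and the clearest pattern, a low level at d4 after the higher doses. Its Cy3 reference signal was well above background on 67 of 82 arrays. At h2 the 4 sham arrays read 6.67, 6.99, 7.11 and 7.25 on the log2 ratio scale, and at d4 they read 5.67, 6.13, 6.17 and 7.28. At d4 the 5 arrays after 3 Gy read 2.36, 2.63, 3.08, 3.42 and 6.79, the highest being mouse M013. The 4 arrays after 6 Gy read 1.72, 2.10, 2.37 and 5.11, and the 4 arrays after 20 Gy read 3.26, 3.53, 3.77 and 3.78. All but 1 of these 13 irradiated arrays lay below the lowest sham array of d4, whereas the 4 arrays after 1 Gy, at 5.62, 6.62, 7.27 and 7.42, overlapped sham. All doses were set against the same 4 sham arrays. Of these, 3 were read on scanner 1 and only that of M002 on scanner 2. On scanner 2 were 4 of 5 arrays of d4 after 3 Gy and 3 of 4 after 6 Gy. The raw Cy5 signal of Hbb-bt, which is not scaled for array brightness, showed the same split without the reference channel. It was 3005 to 10137 on the sham arrays of d4. On the 12 irradiated arrays other than that of M013, which read 10879, it was 184 to 963.5. The brightness of whole arrays also differed. Net Cy5 at d4 had a group median of 40 in sham, against 28 (3 Gy), 25.5 (6 Gy) and 13 (20 Gy). The part of array brightness in the raw split was not tested.

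**Figure D1:**
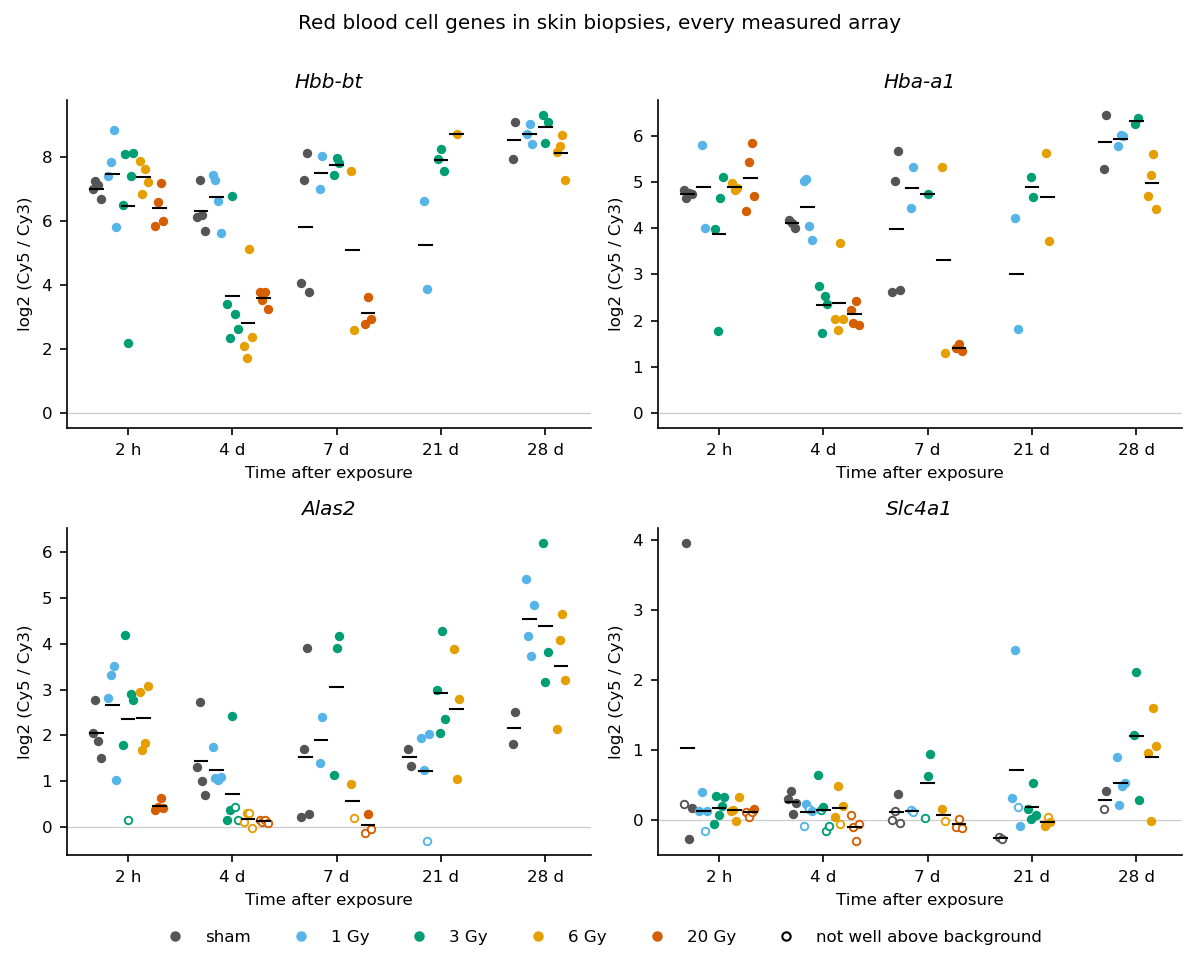
Log2 ratio of biopsy (Cy5) to reference (Cy3) for Hbb-bt, Hba-a1, Alas2 and Slc4a1, with 1 point per array, grouped by time point (h2 to d28) and dose (sham to 20 Gy). Bars are group means, open points are not well above background, and arrays on which the spot carried an outlier flag are left out; at d4 the Hbb-bt arrays after 3, 6 and 20 Gy lay below all sham arrays except that of M013 at 6.79.

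Group means put these levels on a common footing. Sham Hbb-bt was 7.00 ± 0.25 (SD, n = 4) at h2 and 6.31 ± 0.68 (n = 4) at d4, against 3.65 ± 1.80 (n = 5) after 3 Gy, 2.83 ± 1.55 (n = 4) after 6 Gy and 3.59 ± 0.25 (n = 4) after 20 Gy at d4. In limma's moderated test over 30247 probes, with a call at a Benjamini-Hochberg adjusted p below 0.05 and a fold of at least 2, the difference from sham at d4 was -2.66 (SE 0.85, adjusted p = 0.18) after 3 Gy and -3.49 (SE 0.90, adjusted p = 0.149) after 6 Gy, and neither was called. The 95% interval was -4.37 to -0.95 after 3 Gy and -5.29 to -1.68 after 6 Gy. After 20 Gy it was -2.73 (SE 0.90, adjusted p = 0.0158), a call, and after 1 Gy it was 0.42 (SE 0.90, adjusted p = 0.932). Over the 15 comparisons of 1, 3 and 6 Gy with sham, 0.00199% of probe tests were called lower and 0.00773% higher, so few calls were made at these doses for any gene. In 20 Gy against sham at d4, 6.51% of probes were called lower.

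The 3 Gy difference at d4, and the adjusted p at both doses, depended on mouse M013, whose libraries labelled h2 and d4 both stood apart from their groups. Without that mouse the difference from sham at d4 was -3.44 (SE 0.73, adjusted p = 0.0502) after 3 Gy and -3.49 (SE 0.73, adjusted p = 0.0171) after 6 Gy. The second was then a call, against 0.0132% of probes called lower in that comparison. Without M018, whose array read 5.11, it was -4.25 (adjusted p = 0.0181), and it was also a call with scanner as a fixed block (-4.16, adjusted p = 0.0324) or scan day as a random block (-3.99, adjusted p = 0.0215). With the background model fitted on all spots, bright outliers included, the 3 Gy difference was -4.69 (adjusted p = 0.0141), also a call. On 4 of the 5 arrays of 3 Gy at d4 that fit was driven by a few spots with bright local background. Of 42 alternatives for each dose, 40 after 3 Gy and 37 after 6 Gy made no call. Other probes of Hbb-bt gave the same sign at d4. The 3 others read between -1.64 and -2.37 after 3 Gy and between -1.72 and -3.16 after 6 Gy, while after 20 Gy they read -3.19 (adjusted p = 0.000969), -2.26 (adjusted p = 0.0759) and -0.33 (adjusted p = 0.695). Beta globin genes are near-identical copies of each other, so a probe can capture RNA of more than 1 of them.

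In the deposited values the d4 differences of Hbb-bt were smaller at the sublethal doses, -0.92 (adjusted p = 0.218) after 3 Gy and -1.50 (adjusted p = 0.0555) after 6 Gy, and -2.60 after 20 Gy, which was called. Of the 13 arrays after 3, 6 and 20 Gy, 11 lay below the lowest sham array there. In this source 0.0366% of the tests of 1, 3 and 6 Gy were called lower and 0.232% higher. The higher calls held Hbb-bt at h2 after 1 Gy, with a difference of 1.65 (adjusted p = 0.0469), where the scanner files gave 7.47 ± 1.25 (n = 4) after 1 Gy and 7.00 ± 0.25 in sham and made no call.

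Hba-a1, the alpha chain, followed Hbb-bt where its spot was not flagged, but the flag removed 17 of its 82 arrays against 8 for Hbb-bt. At h2 the sham arrays read 4.66, 4.73, 4.77 and 4.83, and at d4 the 3 measured sham arrays read 4.01, 4.12 and 4.18. At d4 the 4 measured arrays after 3 Gy read 1.74, 2.37, 2.54 and 2.75, the 4 after 6 Gy 1.80, 2.03, 2.04 and 3.67, and the 4 after 20 Gy 1.91, 1.96, 2.24 and 2.43. None of these 12 reached the lowest sham array of d4, and the array of M013 at d4, flagged and left out, read 4.18. The difference from sham was -1.75 (SE 0.68, adjusted p = 0.218) after 3 Gy, -1.72 (SE 0.68, adjusted p = 0.534) after 6 Gy, and with 20 Gy it was -1.97 (SE 0.68, adjusted p = 0.0223), a call. With flagged spots kept it was -1.52 after 3 Gy and -1.85 after 6 Gy, again without a call. With the background model fitted on all spots the 3 Gy difference was -3.65 (adjusted p = 0.0141), a call, while 38 of 39 alternatives made none.

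Alas2 lay near background at d4 after the higher doses. Its Cy3 reference signal was well above background on only 39 of 82 arrays. The sham arrays at d4 read 0.69, 0.99, 1.31 and 2.73. The arrays after 3 Gy read 0.14, 0.16, 0.37 and 0.44, apart from M013 at 2.43, and those after 6 Gy read -0.02, 0.11, 0.31 and 0.31, of which 1 of 4 was well above background. After 20 Gy they read 0.10, 0.10, 0.15 and 0.16, and none was well above background. In the Cy5 intensity after normalization, which uses both channels, sham measured on average 2.54-fold higher than 20 Gy. Of the 13 arrays after 3, 6 and 20 Gy, 12 lay below the lowest sham array in the ratio. Only 7 did in the deposited values and 6 in raw Cy5 signal, where sham read 65 to 292. No difference was called at d4, with -0.72 (SE 0.65, adjusted p = 0.603) after 3 Gy, -1.25 (SE 0.69, adjusted p = 0.64) after 6 Gy and -1.30 (SE 0.69, adjusted p = 0.143) after 20 Gy, where the deposited values gave -1.01 (adjusted p = 0.0657).

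Slc4a1 was dim and gave no call at d4. It was well above background on 52 of 82 arrays in Cy5 and on 54 in the Cy3 reference. Of the 13 arrays after 3, 6 and 20 Gy, 8 lay below the lowest sham array of d4 by ratio, 10 in the deposited values and 4 in raw Cy5 signal. Apart from M002 in sham at h2, which read 3.97 with a Cy5 signal of 707, its arrays read between -0.30 and 2.43, and at d4 the sham arrays at 0.09 to 0.41 overlapped those after 1, 3 and 6 Gy. The 20 Gy arrays, at -0.30 to 0.06 and none well above background, lay below them. In the Cy5 intensity after normalization, which uses both channels, sham measured on average 1.21-fold higher than 20 Gy. Its difference from sham at d4 was -0.12 (SE 0.39, interval -0.90 to 0.66) after 3 Gy and -0.09 (SE 0.41, interval -0.92 to 0.73) after 6 Gy, and after 20 Gy it was -0.36 (adjusted p = 0.546), with -0.35 in the deposited values.

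Over the early time points after 20 Gy, the globin genes depended on the source of the values and on their normalization. In the scanner files Hbb-bt read 5.83, 5.98, 6.58 and 7.16 at h2 and 2.77, 2.94 and 3.61 at d7, and its difference from sham was -0.61 (SE 0.90, adjusted p = 0.647) at h2 and -2.70 (SE 0.97, adjusted p = 0.0954) at d7. Hba-a1 read 4.38 to 5.84 at h2 and 1.34, 1.42 and 1.49 at d7, and its difference was 0.34 (SE 0.63, adjusted p = 0.725) at h2 and -2.58 (SE 0.68, adjusted p = 0.013) at d7, a call. The share of all probes called lower was 6.65% at h2 and 1.92% at d7. In the deposited values both globin genes were called lower at all 3 time points. There Hba-a1 differed from sham by -1.62, -2.10 and -1.99 at the successive times and Hbb-bt by -1.77, -2.60 and -2.13, against shares called lower of 2.23%, 2.28% and 2.36% of probes. Markers of other cells were lower in the same source, with fibroblast medians of -3.09 at h2 and -2.79 at d4 (5 of 8 called lower at each), 6 of 10 muscle genes called lower at each, and 5 and 4 of 7 fat genes, and their part in the globin values was not tested. The low level at d4 was thus in both sources, whereas the h2 difference of Hba-a1 changed sign between them. It also changed sign within the scanner files, at -1.51 with median centring (adjusted p = 0.0266) and 1.74 with the scanner's own log ratio (adjusted p = 0.00595). Median centring also called Hbb-bt lower at h2, at -2.49 (adjusted p = 0.00677). The scanner's own log ratio put Hbb-bt at 0.19 and Hba-a1 at -0.52 at d4, with no call, and leaving out single mice lost calls. The d4 call of Hbb-bt was lost without M002 (-2.41, adjusted p = 0.0509), that of Hba-a1 without M001, M004, M022 or M024 (adjusted p = 0.054 to 0.0604), and the d7 call of Hba-a1 without M002, M003, M022, M023 or M024 (adjusted p = 0.0516 to 0.135). The d7 call of Hba-a1 was also lost with the scanner's log ratio (-0.96, adjusted p = 0.281) and with normexp fitted on all spots (-2.21, adjusted p = 0.0739). The d4 calls of Hbb-bt and Hba-a1 were lost without background correction (-2.01 and -1.40) and with Cy5 alone (-1.68 and -1.57). The d7 difference of Hbb-bt became a call in 6 of 43 alternatives. Among these were all sham arrays as control (-3.57) and leaving out M001, M005 or M013 (-3.38 to -2.70).

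**Figure D2:**
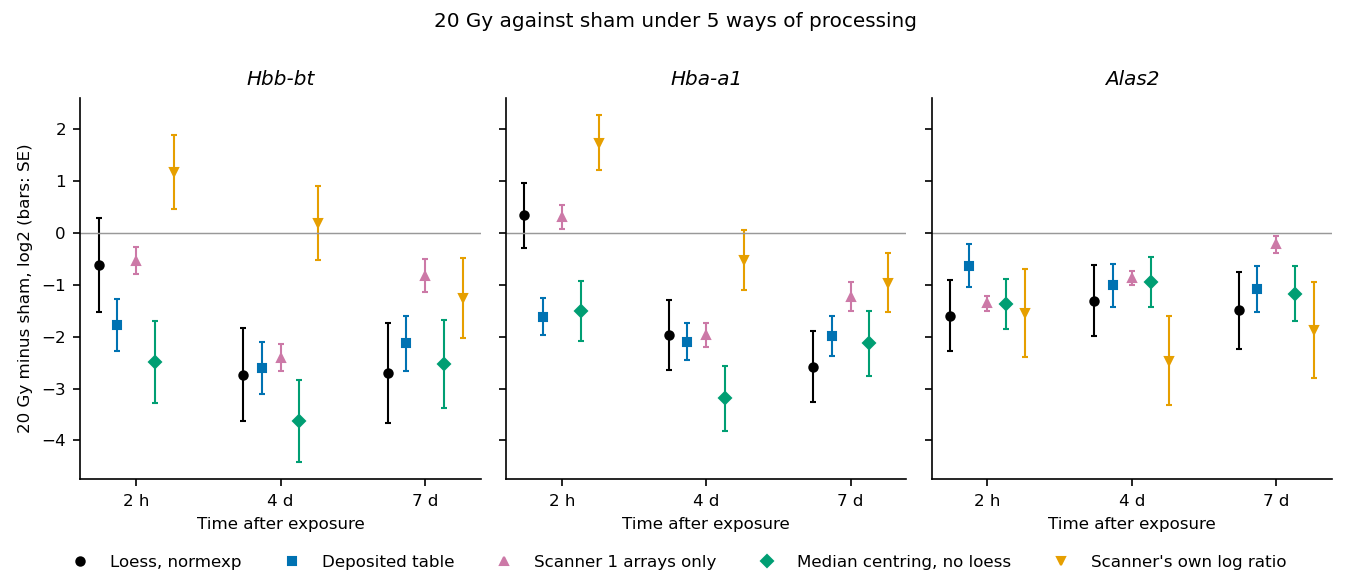
Difference of 20 Gy from sham (log2, bars are SE) for Hbb-bt, Hba-a1 and Alas2 at h2, d4 and d7 under 5 ways of obtaining the ratios: loess after normexp, the deposited table, arrays of scanner 1 only, median centring, and the scanner's own log ratio. At d4 the loess values of Hbb-bt and the deposited values were close, at -2.73 and -2.60, while at h2 the Hba-a1 values ran from -1.62 to 1.74.

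Sham arrays on the same scanner gave a comparison free of the difference between scanners. On scanner 1 only, the difference of Hbb-bt after 20 Gy was -2.41 at d4 (adjusted p = 3.08e-07), with smaller values of -0.53 at h2 (adjusted p = 0.0855) and -0.82 at d7 (adjusted p = 0.112). For Hba-a1 it was -1.97 at d4 (adjusted p = 8.24e-07), then -1.23 at d7 (adjusted p = 0.00669), and 0.31 at h2. The globin calls at d4 and that of Hba-a1 at d7 were thus present on this scanner alone, where 7.77%, 7.89% and 1.31% of probes were called lower at h2, d4 and d7. Over all arrays, a block for slide ended the d4 calls and a block for scan day the d7 call. With slide as a random block (correlation 0.414), Hbb-bt at d4 was -2.69 (adjusted p = 0.145) and Hba-a1 -1.88 (adjusted p = 0.151), and with scan day as a random block (correlation 0.396), Hba-a1 at d7 was -1.82 (adjusted p = 0.19). The sham arrays of d7 were split, with Hbb-bt at 3.78 and 4.07 on the 2 from scanner 1 and 7.26 and 8.13 on the 2 from scanner 2. The 2 from scanner 1, of M001 and M005, were dim, with net Cy5 medians of 8 and 8 against 21.5 and 42. On the same scanner M001 and M005 read 5.67 to 6.99 at h2 and d4, with net Cy5 medians of 30.5 to 47. In the deposited table their d7 arrays read 6.23 and 6.98, so the low sham values at d7 were not in that source.

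In the scanner files Alas2 read lower at h2 after 20 Gy than in sham, at 0.36, 0.41, 0.43 and 0.62 against 1.51, 1.88, 2.05 and 2.77. The 20 Gy arrays shared 1 slide and were dim, with net Cy5 medians of 12.5 to 15 against 30.5 to 47 in sham. The part of slide and brightness in this was not tested. The groups did not overlap, and the difference was -1.60 (SE 0.69, adjusted p = 0.0655), not a call. It was a call on scanner 1 alone (-1.36, adjusted p = 1.03e-07) and without M013 (-1.60, adjusted p = 0.0357), and in the deposited values it was -0.63 without a call. Against 6 Gy at h2, which read 1.68, 1.84, 2.94 and 3.08, Alas2 was lower after 20 Gy by -1.93 (SE 0.69, adjusted p = 0.0239), the only call for the set between these doses. Of all probes, 7.81%, 5.54% and 6.18% were called lower in 20 Gy against 6 Gy at h2, d4 and d7. All of the 6 Gy arrays but M017 at h2 and d4 were on the other scanner, and with scanner in the model the difference was -1.08 (adjusted p = 0.215) and the call was lost, as it was in the deposited values (-0.99) and with normexp fitted on all spots (-0.86). The deposited values instead called Hba-a1 at all 3 time points (-2.34, -1.34 and -1.81) and Hbb-bt at h2 (-2.76) and d7 (-1.86).

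Repeated biopsies allowed each mouse to serve as its own baseline. From h2 to d4, Hbb-bt was lower in all 3 mice measured at both times after 6 Gy (changes of -4.83, -5.11 and -5.75), and in 4 of 5 after 3 Gy (-3.07, -4.31, -5.49 and -5.73). The changes after 20 Gy were -2.05, -2.72, -3.05 and -3.39. In sham they were -0.99, -0.94, -0.86 and 0.04, and after 1 Gy -2.22, -0.40 and -0.20. With mouse as a block, the change after 6 Gy was -4.95 (SE 0.90, adjusted p = 0.0147), a call, where 0.0397% of probes were called lower. It was -2.80 (SE 0.76, adjusted p = 0.159) after 3 Gy, -2.80 (SE 0.85, adjusted p = 0.276) after 20 Gy (deposited -1.35) and -0.69 (SE 0.85) in sham, none of them a call. After 6 Gy the 3 other probes of Hbb-bt were also called, at -4.35, -4.73 and -2.28. The call rested on 3 pairs and was lost without M016, M017 or M020 (-4.88 to -4.63, adjusted p = 0.0615 to 0.168) and with normexp fitted on all spots (-4.94, adjusted p = 0.369). That setting instead called the changes after 3 Gy, at -4.59 for Hbb-bt and -3.68 for Hba-a1 (adjusted p = 0.0145 for each). Marker lists of other cells were read over the same interval, and no fibroblast or vessel wall gene was called in the scanner files. All 8 fibroblast genes were negative after both 3 Gy (median -0.86) and 6 Gy (median -0.80), against a median of -0.19 in sham, and 7 of 8 vessel wall genes were negative at both doses (medians -0.63 and -0.38), against 0 of 8 in sham (median 0.51). The deposited fibroblast medians were -0.58, -0.14 and -0.43 after 3 Gy, after 6 Gy and in sham, with 2 genes called lower after 3 Gy. Their part in the globin changes was not tested.

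**Figure D3:**
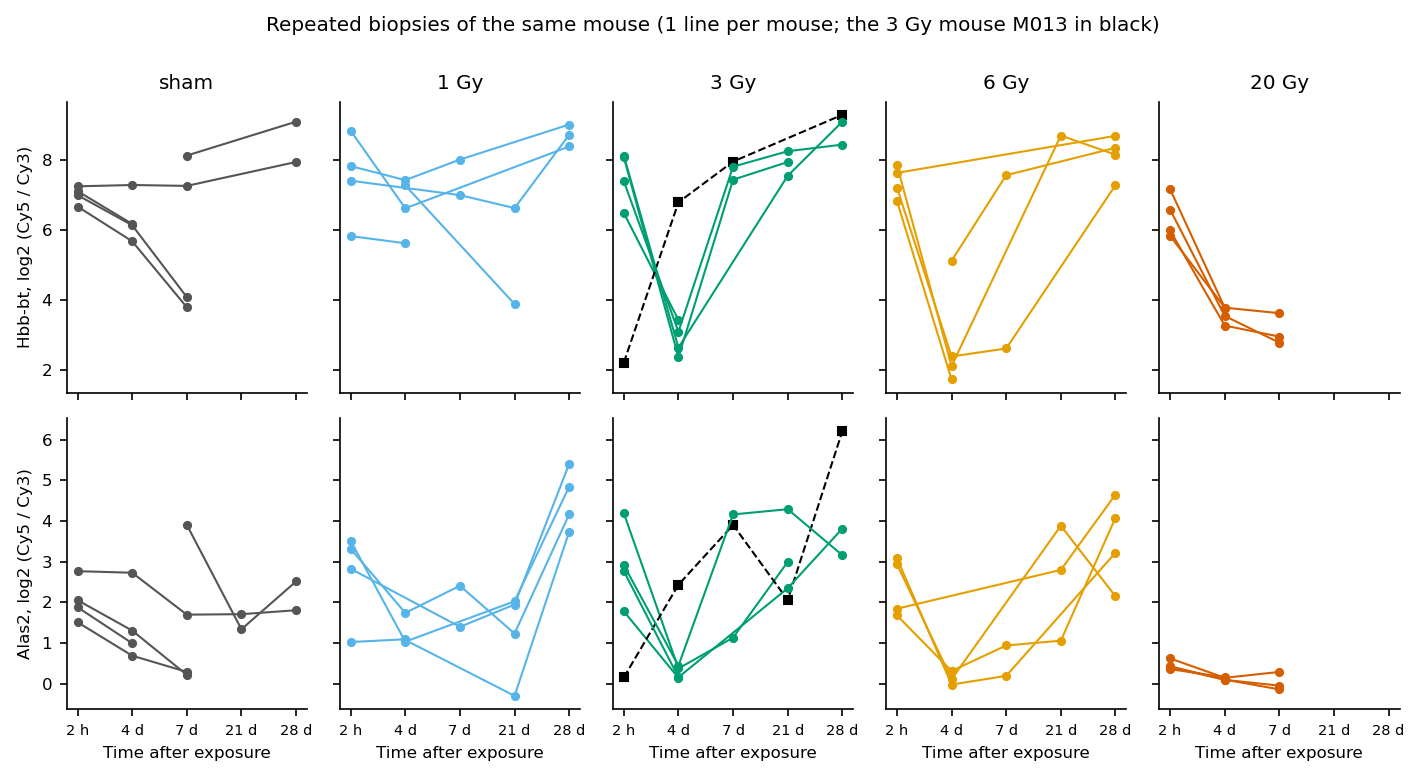
Log2 ratio of Hbb-bt (top) and Alas2 (bottom) from h2 to d28, with 1 line per mouse and a panel for each dose; the black dashed line with squares is M013. After 6 Gy all 3 mice with both biopsies fell from h2 to d4, by 4.83 to 5.75 for Hbb-bt, and M013 ran the other way, from 2.20 to 6.79.

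M013 ran opposite to its group. Its library labelled h2 read 2.20 for Hbb-bt, below all other h2 arrays of 3 Gy (6.48 to 8.12), and that labelled d4 read 6.79. Over all tested probes its change from h2 to d4 correlated with the mean change of the other 3 Gy mice at r = -0.25, while the other 4 mice gave 0.04 to 0.39. Without it, Hbb-bt changed from h2 to d4 after 3 Gy by -4.65 (SE 0.51, adjusted p = 1.55e-06) and Alas2 by -2.63 (SE 0.54, adjusted p = 0.00653), both calls. The share of probes called lower was 0.344% without M013 and 0.00331% with it. For Hba-a1 the value without it was -2.03 (adjusted p = 0.0752).

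Hba-a1 gave fewer pairs than the other tested members. It was lower at d4 than at h2 in all mice measured at both times, 3 of 3 sham, 2 of 2 after 1 Gy, 3 of 3 after 3 Gy, 2 of 2 after 6 Gy and 4 of 4 after 20 Gy, with changes of -0.73 to -0.65 in sham and -3.48 to -2.14 after 20 Gy. With flagged spots kept, 2 of 3 were lower after 1 Gy and 4 of 5 after 3 Gy, M013 running from 1.78 to 4.18. The change after 20 Gy was called at -2.96 (SE 0.54, adjusted p = 0.00704), against 0.0926% of probes called lower. By d7 Hba-a1 had changed by -3.77 (SE 0.61, adjusted p = 2.97e-05) and Hbb-bt by -3.34 (SE 0.95, adjusted p = 0.00991), where 6.25% of probes were called lower. Sham mice M001 and M005 also read lower at d7 than at h2, with changes of -2.20 and -2.08 for Hba-a1 and -2.92 and -2.88 for Hbb-bt, while M002 differed by 0.36 and 0.01. The d7 arrays of 20 Gy and of M001 and M005 were dim, with net Cy5 medians of 7 to 11. Markers of other cells moved over the same interval after 20 Gy, with medians of -3.69 for fibroblast genes (5 of 8 called lower), -2.27 for fat genes (5 of 7), -1.61 for muscle genes (5 of 10) and -1.27 for epidermal genes (5 of 9). These medians were 0.20, 0.07, 0.04 and 0.07 in the deposited values, with none called lower, and the part of these markers in the globin values was not tested. Leaving out M022, M023 or M024 lost the Hba-a1 call to d4 (adjusted p = 0.0869 to 0.124), and leaving out M022 or M023 lost that of Hbb-bt to d7 (adjusted p = 0.0682 to 0.0912). Normexp fitted on all spots lost both as well (adjusted p = 0.128 and 0.0958). The deposited values gave 0.10 and 0.12 for these changes to d7, and -0.84 for Hba-a1 to d4, with no call. The change of Alas2 from h2 to d4 was -2.09 (SE 0.71, adjusted p = 0.273) after 6 Gy and -1.65 (SE 0.61, adjusted p = 0.261) after 3 Gy, without a call. All 4 sham mice were also lower for Alas2, by 0.04 to 0.88.

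In the deposited values the changes of the globin genes from h2 to d4 after 3 and 6 Gy were smaller, that of Alas2 after 3 Gy was the same, and more members were called. After 3 Gy, Hba-a1 changed by -1.11 (adjusted p = 0.0223), Hbb-bt by -2.02 (adjusted p = 0.0036) and Alas2 by -1.65 (adjusted p = 0.00473). After 6 Gy, Hba-a1 changed by -1.80 (adjusted p = 0.00947) and Hbb-bt by -2.99 (adjusted p = 0.00417). Over all probes 0.139% and 0.112% were called lower at these 2 doses. Both sources thus gave a lower Hbb-bt at d4 than at h2 after 6 Gy.

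Whether these changes exceeded those of sham mice was tested as a difference of changes, and no member was called by limma, in either source. Of 32 such tests, 7 had an unadjusted p below 0.05, as did 8.42% of all probe tests. The largest was Hbb-bt from h2 to d4 after 6 Gy, with -4.26 (SE 1.24, interval -6.78 to -1.74, adjusted p = 0.932). Hba-a1 from h2 to d7 after 20 Gy gave -2.46 (SE 0.85, adjusted p = 0.063). Of all tests over these 8 differences, 0.597% were called lower. For Hbb-bt, Hba-a1 and Alas2 the changes from h2 to d4 after 3 and 6 Gy were more negative than in sham in value, without a difference that passed the threshold. For Slc4a1 the order depended on the h2 array of M002, since the sham changes were -3.55 in M002 and 0.06, 0.07 and 0.37 in the other 3 mice, against means of -0.03 after 3 Gy and 0.04 after 6 Gy.

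After d4 the globin level differed between doses and mice. From d4 to d7 Hbb-bt was higher by 5.08 and 4.72 in M012 and M014 and by 1.17 in M013 after 3 Gy and by 2.45 in M018 after 6 Gy, whereas M020 after 6 Gy differed by 0.23 and stayed at 2.60. After 20 Gy all 3 mice were lower again, with differences of -0.76 to -0.16, and the sham mice were lower too, at -2.06 in M001, -1.89 in M005 and -0.03 in M002. The d7 arrays of 20 Gy and of M001 and M005 were the dim ones. The level at d28 was above that at d4 in every mouse measured at both times, 2 of 2 after 1 Gy, 3 of 3 after 3 Gy (2.50 to 6.47), 3 of 3 after 6 Gy (3.23 to 6.05) and 1 of 1 in sham (0.66). At d28 sham read 7.94 and 9.10, and means were 8.71 ± 0.31 (n = 3) after 1 Gy, 8.94 ± 0.45 (n = 3) after 3 Gy and 8.12 ± 0.60 (n = 4) after 6 Gy. By ratio 1 of 10 irradiated arrays was above both sham arrays, although in raw Cy5 signal all 10 were, as were 9 of 9 for Hba-a1. Both sham arrays of d21 carried an outlier flag for Hbb-bt and Hba-a1, so no difference was fitted there. With the flag set aside they read 6.42 and 6.54 for Hbb-bt and 4.20 and 4.74 for Hba-a1, and the d21 array of M008 after 1 Gy read 3.88 for Hbb-bt, 1.81 for Hba-a1 and -0.30 for Alas2.

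At d28 the Alas2 ratio lay above sham on most arrays. Sham read 1.81 and 2.51, while the arrays after 1 Gy read 3.74, 4.16, 4.84 and 5.40, those after 3 Gy 3.16, 3.81 and 6.20, and those after 6 Gy 2.15, 3.22, 4.08 and 4.65. Of these 11 arrays 10 were above the higher sham array, and 9 in the deposited values. In raw Cy5 signal all 11 were, but the raw signal was also above sham for the other members (10 of 11 for Slc4a1). Slc4a1 lay above sham on 8 of 11 arrays by ratio and 2 in the deposited values. The differences were 2.38 (SE 0.84, adjusted p = 1, unadjusted p = 0.0064), 2.23 (SE 0.89, adjusted p = 0.437) and 1.36 (SE 0.84, adjusted p = 0.539) after 1, 3 and 6 Gy, and none was called, with only 2 sham arrays to set them against. Hair follicle genes gave medians against sham of -0.58, 2.20 and 2.44 after 1, 3 and 6 Gy, with none called. The deposited medians were -1.03, 0.10 and -0.46, and the part of these genes in the Alas2 values was not tested. All 9 mice with both biopsies were higher for Alas2 at d28 than at d4, by 2.04 to 3.81, and the 1 sham mouse differed by -0.92. From h2 to d28, Hba-a1 after 3 Gy was called higher at 2.95 (SE 0.72, adjusted p = 0.00946), against 1.29% of probes, but it was not without M013 (1.74, SE 0.92, adjusted p = 0.266) or with normexp fitted on all spots (2.93, adjusted p = 0.0576). Over that interval 7 of 8 vessel wall genes were called lower (median -2.05, and 8 of 8 in the deposited values) and the hair follicle median was 2.43 (deposited 0.87) with none called, and the part of these in the Hba-a1 value was not tested. The deposited values called Hba-a1 (1.43) and Hbb-bt (1.75) higher after 3 Gy, against 1.39% of probes, and Alas2 (1.29) higher after 1 Gy, against 0.952%.

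The only member called in sham mice was Slc4a1, which differed from h2 to d7 by -1.33 (SE 0.43, adjusted p = 0.047) and from h2 to d21 by -2.30 (SE 0.58, adjusted p = 0.025), beside 1.84% and 0.895% of probes called lower. Both depended on the h2 array of M002, at 3.97 against -0.28, 0.17 and 0.23 on the other 3. Without that mouse they were -0.18 (adjusted p = 0.842) and -0.82 (adjusted p = 0.624). The call to d7 was lost in 19 of 28 alternatives, the deposited values among them (-0.74, adjusted p = 0.0804), and that to d21 in 4 of 28, also without M003 (adjusted p = 0.0653), with normexp fitted on all spots (adjusted p = 0.0673) and without the block for mouse (adjusted p = 0.321).

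The globin genes and Alas2 varied together from array to array. Pearson's r was 0.96 between Hba-a1 and Hbb-bt over 63 arrays, 0.83 between Alas2 and Hbb-bt over 74, and 0.77 between Alas2 and Hba-a1 over 65, all from arrays that share mice, slides and doses. Slc4a1 gave 0.23 to 0.36 with the others, and -0.35 to -0.18 in the deposited values. Among 15634 other genes over 82 arrays, genes with a high r with the mean of the members were H2-Aa (0.68), Mt4 (0.64), Ccr2 (0.63), Retnla (0.63), Slc16a7 (0.61), H2-DMb1 (0.60), Bpgm (0.59), Serpina1d (0.59) and Marchf1 (0.59). Bpgm, which makes the 2,3-bisphosphoglycerate that tunes oxygen release, is abundant in red cells. In the deposited values H2-Aa gave 0.74, Bpgm 0.01 and Slc16a7 -0.12, so some of these likenesses were not in both sources.

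**Figure D4:**
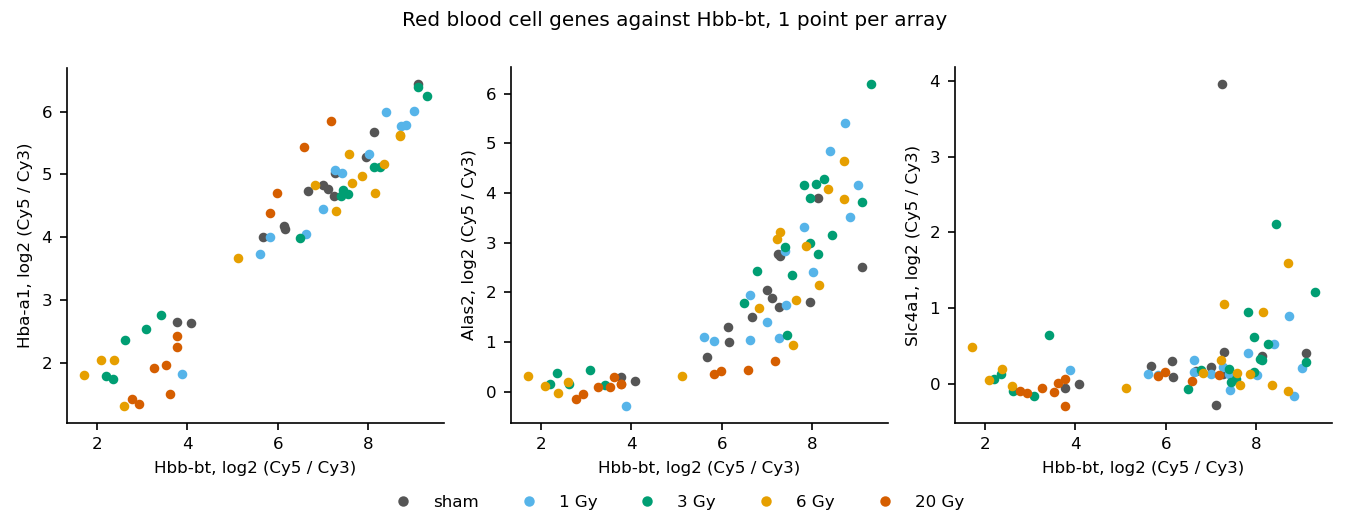
Log2 ratio of Hba-a1, Alas2 and Slc4a1 (y axes) against that of Hbb-bt (x axis), with 1 point per array colored by dose. Hba-a1 lies along a line with Hbb-bt (r = 0.96 over 63 arrays), Alas2 spreads more widely (0.83 over 74), and Slc4a1 gave no such line, with most arrays near 0 and 1 at 3.97.

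The wider lists of red cell genes held no call at the sublethal doses at d4. None of the 14 tested genes of heme synthesis, 15 of the membrane and skeleton, 9 red cell transcription factors, 19 reticulocyte enzymes and maturation genes, 10 genes of heme and iron handling, or 2 other globin genes (Hbb-y and Hbq1b) was called at d4 after 1, 3 or 6 Gy, by limma or in the deposited values. Of these 69 list entries (Fech and Cpox are in 2 lists), 2, 9 and 4 had an unadjusted p below 0.05 after 1, 3 and 6 Gy, beside 6.29%, 16% and 8.12% of all probes. Their median differences at d4 were -0.10 and -0.03 for heme synthesis, -0.29 and -0.04 for the membrane and skeleton and -0.05 and 0.00 for the transcription factors after 3 and 6 Gy, beside a median over all tested probes between -0.02 and 0.02.

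After 20 Gy a few members of these lists were called, where 6.65%, 6.51% and 1.92% of all probes were called lower and 7.64%, 6.54% and 1.23% higher at h2, d4 and d7. In the membrane and skeleton list, Tmod1, which caps actin filaments of the skeleton, was lower at d4 by -2.12 (SE 0.56, adjusted p = 0.00234) and Sptb, beta spectrin, by -1.74 (SE 0.55, adjusted p = 0.0105), against -0.74 and -0.07 in the deposited values. That source instead called Ank1, ankyrin of the red cell, lower at h2 (-1.91) and d4 (-2.37) and the water channel Aqp1 at d4 (-1.23), where the scanner files gave 0.10, -1.09 and -0.87 without a call. Ank1 was lower at d7 by -2.51 (SE 0.71, adjusted p = 0.0197) and Aqp1 by -1.32 (SE 0.37, adjusted p = 0.0171), and the deposited values called both as well (-2.28 and -1.09). Heme synthesis gave Cpox alone, at 1.07 at d4 in the scanner files and -0.30 in the deposited values. The reticulocyte list had 4 genes lower at h2 (Bpgm at -1.45, Car2 at -1.26, Bnip3l at -1.13, and Mkrn1) and, at d4, 2 lower and 2 higher, none of them called in the deposited values. No transcription factor was called against sham.

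Genes that bind heme, hemoglobin or iron were called in both directions after 20 Gy, with 2 of 10 higher and 1 lower at h2, then 4 lower at d4, then 2 lower at d7 beside 1 higher, against the same shares of all probes. At h2 the higher genes were Ftl1, the light chain of ferritin (1.55, deposited 0.54), and Hebp1, a heme-binding protein (1.02, deposited -0.33). Hebp2, of the same family, was lower at all 3 time points, by -1.92, -1.17 and -2.33 in order (deposited -1.48, -1.43 and -1.45). Haptoglobin (Hp), which binds free hemoglobin, was lower at d4 by -1.33 (deposited -1.66) and was also called lower at d7, and Fth1, the heavy chain of ferritin, was higher at d7 by 2.01 (deposited 1.23). The deposited values called Fth1 higher at h2 (1.44) and d4 (1.17) too, where the scanner files gave -0.02 and -0.60, and Hp lower at h2 (-1.73 against -0.56). Their counts for the list were 1 higher at each time point and 2, 3 and 2 lower. Hjv, hemojuvelin, was lower at d4 by -2.40 (SE 0.74, adjusted p = 0.00969; deposited -1.26). Hpx, hemopexin, was well above background on 28 arrays and not called, Ermap was above background on 2 arrays and not tested, and Erdr1 had no matched probe.

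Markers of other cells of the biopsy were read beside these results, and their part in them was not tested. At d4 after 3 and 6 Gy none was called in any of 10 lists in the scanner files (9 and 1 of 83 genes had an unadjusted p below 0.05, and the deposited values called 3 at each dose), and the medians were 0.21 and 0.20 for 10 platelet genes, 0.18 and 0.02 for 10 neutrophil genes, 0.15 and 0.42 for 9 epidermal genes, -0.73 and -0.39 for 8 fibroblast genes (0.12 and 0.90 in the deposited values, with 2 called higher after 6 Gy), and 0.75 and 0.88 for 7 fat genes. For 8 hair follicle genes the medians were 0.02 and -0.18, but -1.05 and -1.06 in the deposited values, with none called. Genes of the blood vessel wall, of interest because vessels hold the red cells, had medians of -0.51 and -0.17 over 8 genes, with list means per array of 2.50 to 4.16 in sham, 1.69 to 3.35 after 3 Gy and 2.36 to 2.95 after 6 Gy. After 20 Gy, by contrast, 5 of the 8 vessel genes were called lower at h2, 6 were at d4 and 1 was at d7, against 6.65%, 6.51% and 1.92% of all probes, and list means at d4 were 0.79 to 1.13. In the deposited values the vessel medians were 0.02, -0.54 and -0.17, with 0, 1 and 1 called lower. The epidermal list had 3 genes higher and 4 lower of 9 at both h2 and d4 after 20 Gy in the scanner files, and 7 lower in the deposited values. At d7 after 20 Gy, 5 of 8 fibroblast genes (median -3.47), 6 of 7 fat genes (median -2.72) and 4 of 9 epidermal genes (median -1.24) were called lower, against 1.92% of all probes, and in the deposited values 5, 5 and 6 were.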

How the data were processed

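Skin biopsies of 24 mice were measured on 82 Agilent 2-color arrays of 45018 spots, 1639 of them controls. Per the file headers, images were read by Agilent Feature Extraction 10.10.1.1 or 11.0.1.1, and the deposited scanner files give each spot's Cy5 and Cy3 intensity and a log10 ratio made by that software. The authors also deposited normalized log2 values for 41267 entries, whose scale and centring are not stated in the sources used here (column medians -0.0147 to 0.0150), and 41174 entries matched a probe of the scanner files. The direction of each ratio was taken from the dyes in the labels, biopsy in Cy5 over reference in Cy3, with no dye swap.

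Here the intensities were background-corrected by normexp (offset 50), normalized within arrays by loess, and tested in limma 3.58.1 (R 4.3.3, statmod 1.5.0 and the data.table package, version 1.17.8). Median spot signals were used. Control spots and spots flagged as outliers (0.349% of values) were left out. Normexp was fitted on spots without an outlier flag, because on 32 arrays the fit on all spots was driven by a few spots with bright local background (sigma up to 1776, against at most 1.37), a choice made after seeing the data. A probe was tested if, in some group, 50% or more of the arrays had its Cy5 signal well above background (30247 of 41174 probes). Symbols came from RefSeq accessions (27572 probes, 67.0%), and 8868 probes carry different accessions in the 2 versions of the design. Probe intensities limit precision together with the number of arrays.

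Groups were the dose and time point in the labels. Irradiated groups were compared with sham at the same time point, and 20 with 6 Gy, in 1 model of 23 group means. Changes over time, and their difference from sham, had mouse as a fixed block, since the number in the labels marks a mouse. A call needed an adjusted p below 0.05 and a fold of at least 2. The tests were checked on simulated data. Alternatives were the deposited values, other background and normalization settings, scanner, slide, scan day and mouse as blocks, filters, probes, and each mouse left out. The 7 genes and all gene lists were chosen with earlier results of these data known. The genes named were the 7 members, at most 4 called genes per list and comparison, the 10 genes most like the members (1 of them is not reported here), and red cell genes named by the study. No 2 arrays held identical values (highest r between arrays 0.991).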

Additional observations from a re-analysis of the deposited data

Results flagged for a closer look

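In 51 groups of 4 or 5 arrays examined for the 4 tested genes, 7 had an array far from the others of its group by a gap test at the 95% level, which chance passes in about 1 of 20 groups. Mouse M013 gave 3 of them: Hbb-bt after 3 Gy at 2.20 (2.1974) at h2 and 6.79 (6.7875) at d4, and Alas2 after 3 Gy at d4 at 2.43 (2.4331). M007 gave Alas2 after 1 Gy at d4 at 1.74 (1.7408) and Slc4a1 after 1 Gy at d21 at 2.43 (2.429). M018 gave Hba-a1 after 6 Gy at d4 at 3.67 (3.671). M002 gave Slc4a1 in sham at h2 at 3.97 (3.9667), an array on which no other tested member stood apart. What set these arrays apart was not tested.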

How the results depend on the processing

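Against sham at the same time point, the 3 calls (all lower) of members became 6 with the deposited values (and 1 higher), 6 with median centring, 8 with all sham arrays as control (and 3 higher), 1 with the scanner's own log ratio (and 1 higher), without background correction, with Cy5 alone and with slide as a block, and on scanner 2 only, which held no 20 Gy array, the 3 calls could not be fitted and the other comparisons gave 0. Leaving out each mouse in turn gave 1 (M002, M022 or M024) to 6 (M013) lower and 0 to 0 higher, with 5 without M005. With the replicate block (mouse as a random block, correlation 0.105) the count stayed at 3, and it changed no call. The changes within a mouse gave 6 lower and 1 higher, against 6 and 3 with the deposited values, 3 and 0 with normexp fitted on all spots, and 4 and 1 with no replicate block. Leaving out each mouse gave 3 (M022, M023) to 9 (M013) lower and 0 (M013) to 2 (M002, M012) higher. The difference from sham had 0 calls, and 1 with no replicate block. Between 20 and 6 Gy, 1 call became 5 with the deposited values and 0 with scanner as a block or normexp fitted on all spots. For these counts the cause was not tested.

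Reversals were as follows. Hba-a1 in 20 Gy against sham at h2 was -1.62 (deposited) and -1.51 (median centring). Hbb-bt there was 1.18 (scanner log ratio) and 1.53 (probe A_52_P213909), and at d4 it was 0.19 (scanner log ratio). Hbb-bt in 1 Gy against sham at h2 was -0.10 (scanner log ratio), -0.35 (median centring), -0.21 (scanner block), -0.0349 (scan day block) and -0.34 (probe A_52_P213909). From h2 to d7 after 20 Gy the deposited values gave 0.10 for Hba-a1 and 0.12 for Hbb-bt. In 20 against 6 Gy, Hba-a1 was -2.34 at h2 (deposited), and at d4 0.67 (normexp on all spots) and 0.31 (scanner block), and Hbb-bt at h2 was 0.0248 (scanner block). The differences of Hbb-bt (42 alternatives), Hba-a1 and Alas2 (39 each) from sham at d4 after 3 and 6 Gy were negative in every alternative. Dim signal limits Alas2 and Slc4a1, and 2 sham mice limit d21 and d28.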
